A study of Mus musculus with 16 samples.

Results

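The inflammatory IL-1 and prostaglandin genes followed here are Il1b, Il1a, Il1rn, Il6, Cxcl1, Cxcl2, Ptgs2 and Nlrp3. They were chosen by name for their place in 1 response and taken by symbol, the 8 of 24495 gene symbols counted, and each symbol had a single entry in the count tables. IL-1 is made by the ligand genes Il1b and Il1a, opposed at its receptor by the antagonist encoded by Il1rn, and its beta form is released after cutting by caspase-1, which the sensor NLRP3 helps to switch on. A cell that responds to IL-1 or to microbial products through NF-kB makes interleukin-6, the neutrophil-attracting chemokines CXCL1 and CXCL2, and the inducible cyclooxygenase PTGS2, the enzyme at the head of prostaglandin synthesis. In tumors these genes are known from neutrophils, monocytes and macrophages, where IL-1 and prostaglandin E2 shape the immune response to the tumor.

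The study asked how loss of the thymic transcriptional regulator Aire changes the immune cells of a tumor and their response to a checkpoint antibody. Single-cell RNA sequencing libraries of sorted CD45+ cells were made from MC38 colon carcinoma tumors and from spleens of Aire+/+ and Aire-/- mice on the C57BL/6 background. The mice were 8 weeks old, all bore MC38 tumors, and were given an isotype control antibody or anti-PD1 at 5 mg/kg, with tissue taken on day 19. The tumors of 4 to 6 mice were pooled for each condition, as were the spleens, which left 1 library for each of the 4 conditions in each tissue and no replicate from which an error between mice could be taken.

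The 8 libraries held 17668 cells after filtering. Every set of 4 values here gives Aire+/+ first and Aire-/- second, with isotype before anti-PD1 within each genotype. In that order the tumors gave 2930, 2208, 1856 and 2075 cells with 38930018, 28760725, 24639380 and 23282801 counted transcripts (UMIs). The spleens gave 2095, 2088, 2023 and 2393 cells with 12131829, 10927395, 11179230 and 12618100 UMIs. The median cell had 11892, 11858.5, 12251.5 and 9889 UMIs in the tumors and 4549, 4413.5, 4733 and 4502 in the spleens. Of all barcodes, 195 occurred in more than 1 library, with 3 to 16 shared by a pair of libraries and never more than 0.791% of a library.

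Cells were assigned to classes from UMIs of marker genes, none of them among the 8 genes. Macrophages needed at least 20 UMIs of C1qa, C1qb and C1qc per 10000, and monocytes at least 30 UMIs of Lyz2 per 10000 with monocyte genes such as Ly6c2 and Ccr2. The tumors held 1045, 726, 468 and 173 macrophages, which were 35.7%, 32.9%, 25.2% and 8.34% of the cells. They held 599, 409, 447 and 362 monocytes, but only 32, 27, 21 and 10 neutrophils and 61, 49, 55 and 37 type 2 dendritic cells (cDC2). A further 569, 386, 243 and 132 tumor cells had myeloid genes (at least 2 UMIs of Csf1r and Cd68) and passed no gate, and are given as ungated myeloid cells. The gates had soft edges, since 107, 75, 59 and 35 of the macrophages lay within 2 times the C1q minimum and 204, 112, 109 and 73 of the monocytes within 2 times the Lyz2 minimum. Of 6 macrophage genes left out of the gates, 5, 6, 5 and 5 were highest in the gated macrophages of the tumors, whereas only 3, 3, 3 and 4 of 6 monocyte genes were highest in the gated monocytes there. Of 11 dendritic genes, which mix subtypes, 7, 7, 6 and 6 were higher in cDC2 and 5, 5, 5 and 7 in mature dendritic cells than in every class compared, the gated classes of at least 20 cells that are not dendritic.

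Il1b encodes interleukin-1 beta, the secreted ligand. Its level in tumor macrophages was 3697 (3668 to 3727), 3774 (3738 to 3810), 4184 (4138 to 4231) and 4898 (4804 to 4993) CPM (UMIs per 1000000 UMIs of those cells), with 95% Poisson intervals that, like every interval given here, cover counting error only. In tumor monocytes it was 5475, 4955, 5916 and 5554 CPM. The monocyte level was above the macrophage level in each library, and in both classes each Aire-/- tumor lay above the Aire+/+ tumor of the same treatment, although by less than 2-fold. The log2 ratio of Aire-/- to Aire+/+ was 0.18 (0.16 to 0.20) under isotype, compared with 0.38 (0.35 to 0.41) under anti-PD1 in macrophages, and 0.11 (0.09 to 0.13) and 0.16 (0.14 to 0.19) in monocytes. The ratio of anti-PD1 to isotype was 0.03 (0.01 to 0.05) in Aire+/+ and 0.23 (0.19 to 0.26) in Aire-/- macrophages, against -0.14 (-0.17 to -0.12) and -0.09 (-0.12 to -0.07) in monocytes. Il1b thus moved little between conditions within either class.

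Il1b differed more between classes of cells than between conditions. Tumor neutrophils held 17946, 19309, 26018 and 23314 CPM, the last from 10 cells. The ungated myeloid cells held 6258, 5888, 6396 and 7334, cDC2 4007, 3498, 4926 and 4173, and mature dendritic cells (Fscn1 and Ccr7) 1508, 1409, 2824 and 2026. From the top, the order over libraries with at least 20 cells was neutrophils, then ungated myeloid cells and monocytes, whose ranges overlapped, then cDC2 and macrophages, whose ranges also overlapped, then mature dendritic cells. Type 1 dendritic cells, with at least 20 cells in the Aire-/- tumors alone, held 4247 and 3035 there. Tumor T cells, taken as the background of free RNA and doublets, held 423, 91.0, 291 and 106 CPM, and 41, 12, 24 and 37 of them had at least 2 UMIs of Csf1r and Cd68. With few neutrophils present, most of a tumor's Il1b lay elsewhere: macrophages held 39.2%, 41.9%, 32.2% and 20.3% of its UMIs, monocytes 25.6%, 24.6%, 34.9% and 43.2%, and neutrophils 2.50%, 2.52%, 2.93% and 2.19%. The ungated myeloid cells held 40736, 25782, 18273 and 10179 of 154813, 103526, 96745 and 50951 Il1b UMIs. In both Aire+/+ tumors that was more than the monocytes held. The largest holder was the macrophages in both Aire+/+ tumors and the monocytes in both Aire-/- tumors, where fewer cells were macrophages.

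**Figure D1:**
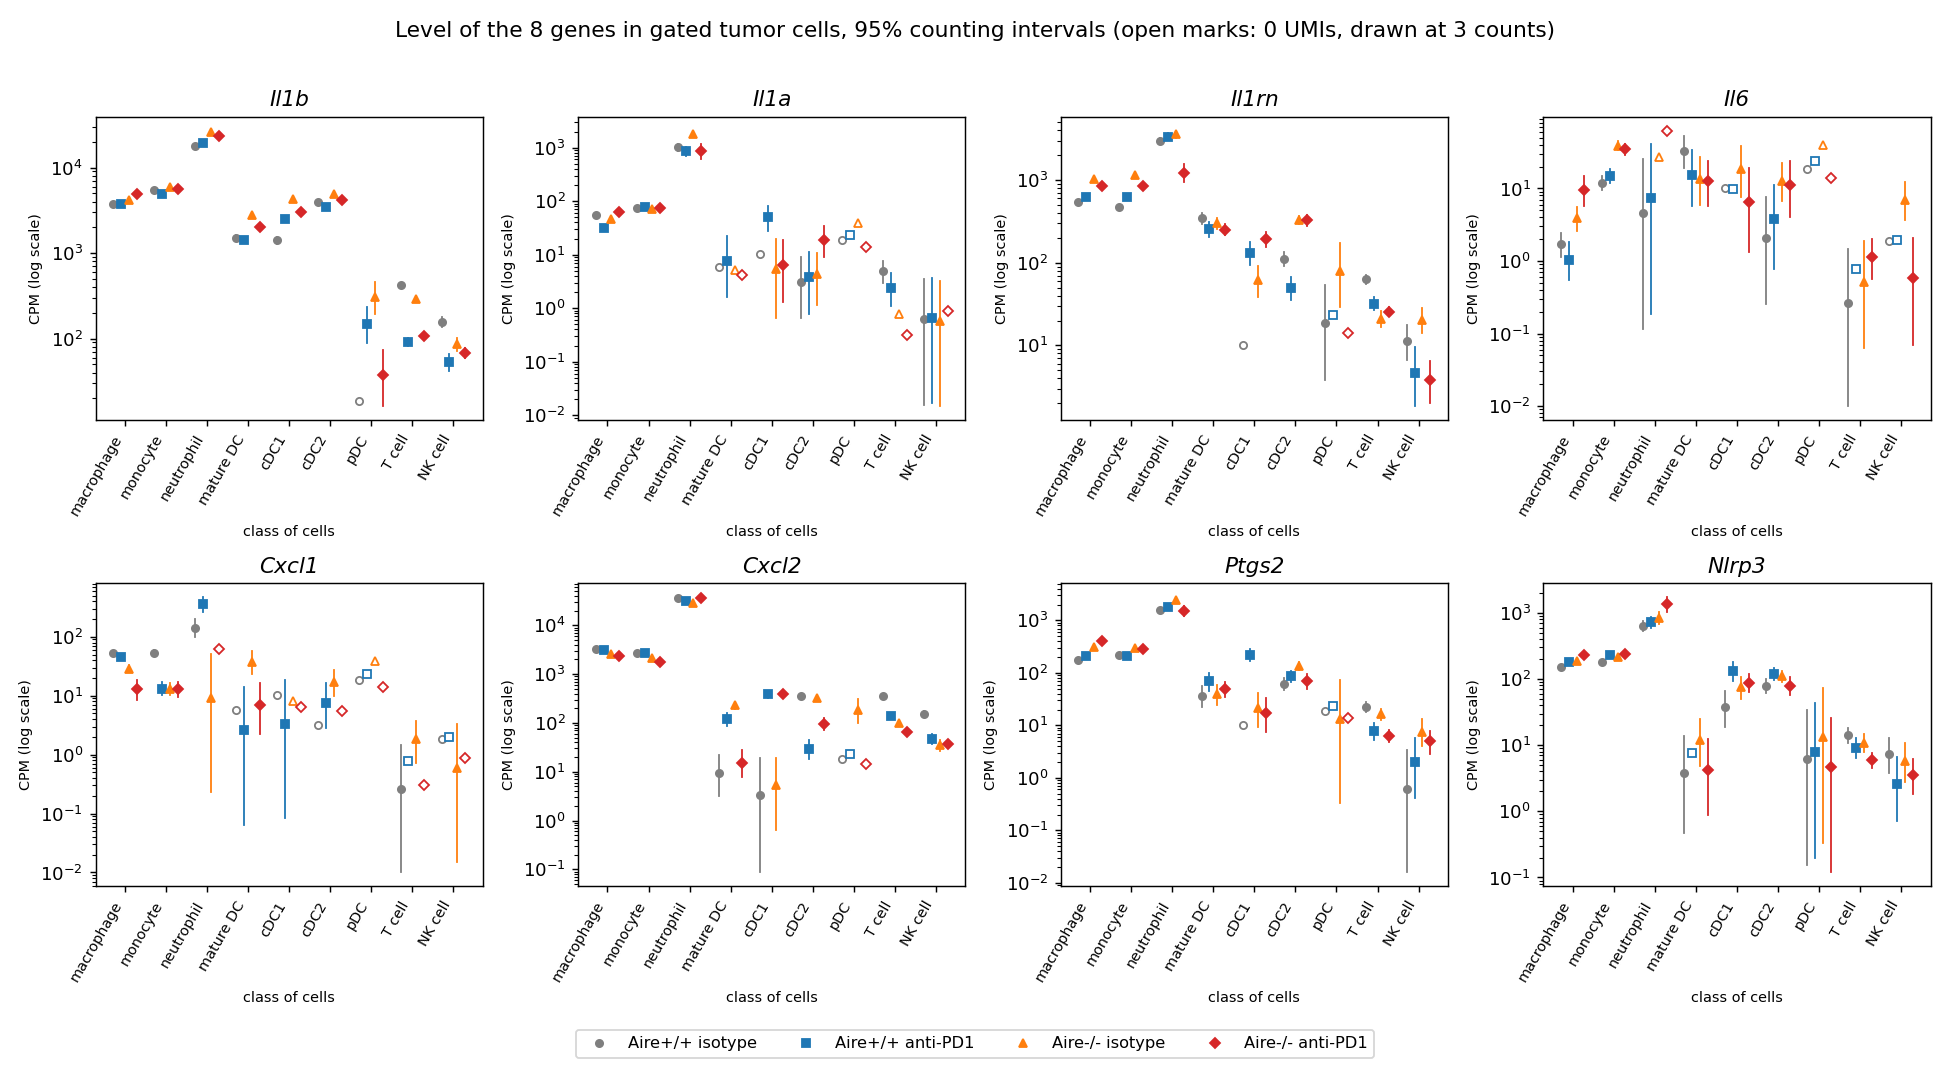
Level of each of the 8 genes (CPM, log axis) in the gated classes of the 4 tumor libraries, 1 panel per gene and 1 mark per library with its 95% counting interval, with T and NK cells as background; open marks had 0 UMIs and stand at 3 counts. For Il1b, neutrophils lie highest at 17946 to 26018 in the libraries with at least 20 of them, and macrophages at 3697 to 4898.

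Most cells of both classes carried Il1b. After each cell was thinned to 2000 UMIs, 79.0% (76.4% to 81.5%), 79.5%, 78.8% and 82.1% of tumor macrophages and 87.3%, 84.6%, 88.6% and 85.4% of monocytes had an Il1b UMI, with Clopper-Pearson intervals. Without thinning these were 86.9%, 89.1%, 88.2% and 90.8% of macrophages, at a median of 14601, 14942, 13960.5 and 11521 UMIs per cell, and 93.8%, 91.4%, 95.1% and 91.4% of monocytes, at 11794, 12245, 12380 and 10844. The T cell background was 10.1%, 2.36%, 5.54% and 2.74% thinned and 13.1%, 5.76%, 6.997% and 4.11% unthinned, at a median of 8668.5, 7727, 9211 and 8442.5, so the myeloid shares stood far above it in each library. Thinning left out none of these tumor cells. Among the macrophages the median cell held 32.5, 33.2, 33.4 and 44.7 Il1b UMIs per 10000 and the 90th percentile 98.9, 97.6, 99.3 and 126, and the top 10% of cells held 32.6%, 29.8%, 34.1% and 30.1% of the UMIs. The transcript was therefore spread over most cells of the class in all 4 tumors.

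Il1a encodes interleukin-1 alpha, the ligand that acts largely at or inside the cell that makes it. Tumor macrophages held 54.1 (50.6 to 57.8), 31.4 (28.3 to 34.8), 47.1 (42.3 to 52.3) and 63.5 (53.2 to 75.2) CPM, from 888, 361, 351 and 134 UMIs. Tumor monocytes held 74.6, 76.9, 71.0 and 73.0. The Aire+/+ anti-PD1 tumor was the low one among macrophages, while the 4 monocyte values lay within their counting intervals of each other. In macrophages Aire-/- was above Aire+/+ under anti-PD1 by a log2 ratio of 1.02 (0.72 to 1.31), just past 2-fold, whereas under isotype the ratio was -0.20 (-0.38 to -0.02). Without the 1 cell with the most Il1a UMIs in each library the anti-PD1 ratio was 0.95, under 2-fold, and it was 0.51 when macrophages, monocytes and ungated myeloid cells were pooled. Neutrophils held 1009, 859, 1802 and 856 CPM, from 218, 116, 196 and 41 UMIs, the highest level of any tumor class, with the isotype Aire-/- library above the other 3. Thinned, 6.60%, 4.41%, 6.62% and 8.67% of macrophages had an Il1a UMI and unthinned 16.0%, 13.9%, 17.5% and 19.1%, against unthinned T cell shares of 1.12%, 0.785%, 0% and 0%, where 0 of 343 and 0 of 948 cells allow up to 0.875% and 0.316%.

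Il1rn encodes the receptor antagonist that competes with both ligands. In tumor macrophages it was at 548 (537 to 560), 620.5 (606 to 635), 1030.3 (1007 to 1054) and 841 (802 to 881) CPM. In tumor monocytes it was at 474 (458 to 490), 617 (596 to 639), 1162 (1134 to 1190) and 845 (817 to 874). Both Aire-/- tumors lay above both Aire+/+ tumors in each class, with the Aire-/- isotype tumor the highest and the Aire+/+ isotype tumor the lowest. Under isotype the log2 ratio of Aire-/- to Aire+/+ was 1.29 (1.23 to 1.35) in monocytes, past 2-fold, and 0.91 (0.87 to 0.95) in macrophages, short of it. Under anti-PD1 the ratios were 0.45 (0.38 to 0.52) and 0.44 (0.36 to 0.51).

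The treatment went with opposite shifts of Il1rn in the 2 genotypes. In Aire+/+ the ratio of anti-PD1 to isotype was 0.38 (0.31 to 0.45) in monocytes and 0.18 (0.13 to 0.22) in macrophages, and in Aire-/- it was -0.46 (-0.52 to -0.40) and -0.29 (-0.37 to -0.22), all short of 2-fold. The isotype genotype ratio kept its sign under all 11 alternative settings, at 0.97 to 1.47 in monocytes and 0.86 to 1.21 in macrophages. The cDC2 held 112, 49.6, 326 and 327 CPM, from 107, 39, 305 and 177 UMIs, so that here too both Aire-/- tumors were the high ones. Their genotype ratio was 1.54 (1.22 to 1.87) under isotype, compared with 2.72 (2.21 to 3.26) under anti-PD1. The top 10% of cDC2 held 75.7%, 71.8%, 59.0% and 55.4% of these UMIs. The intervals, which treat every UMI as separate, are thus too narrow, and no ratio without the top cell was taken in cDC2. Neutrophils held 2967, 3370.0, 3595 and 1231, with the last from 59 UMIs in 10 cells, and their isotype genotype ratio of 0.28 was much smaller. The ungated myeloid cells held 699.7, 876, 1156 and 1153, again higher in both Aire-/- tumors, and T cells 63.2, 32.0, 20.9 and 25.5, which ran the other way in both treatments.

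The share of cells with an Il1rn UMI followed the level. After thinning it was 46.4% (43.4% to 49.5%), 49.9% (46.2% to 53.6%), 62.8% (58.3% to 67.2%) and 61.8% (54.2% to 69.1%) in macrophages and 36.6%, 46.9%, 61.7% and 51.7% in monocytes, against 5.03%, 3.40%, 2.62% and 1.79% in T cells. Unthinned it was 78.4%, 81.4%, 88.5% and 85.0% in macrophages, 68.1%, 74.6%, 86.8% and 76.5% in monocytes, and 15.4%, 8.64%, 5.83% and 3.80% in T cells, at the median depths given for Il1b. The difference between genotypes was thus one in many cells, since the median macrophage held 2.66, 3.48, 5.67 and 4.56 Il1rn UMIs per 10000 and the median monocyte 1.65, 2.56, 6.24 and 3.81.

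Set against the ligand, the antagonist differed by genotype in a way that depended on the class of cell. For each 100 UMIs of Il1b there were 14.8, 16.4, 24.6 and 17.2 UMIs of Il1rn in macrophages and 8.65, 12.4, 19.6 and 15.2 in monocytes. The same count was 2.80, 1.42, 6.63 and 7.83 in cDC2 and 11.2, 14.9, 18.1 and 15.7 in ungated myeloid cells, and in these 4 classes both Aire-/- tumors lay above both Aire+/+ tumors. In neutrophils and mature dendritic cells both Aire-/- tumors lay below, at 16.5, 17.5, 13.8 and 5.28 in the first and 22.8, 18.1, 10.6 and 12.4 in the second. The 5.28 came from 59 Il1rn UMIs in 10 cells, under the minimum of 20 cells. Type 1 dendritic cells, with at least 20 cells in the Aire-/- tumors alone, held 0, 5.22, 1.45 and 6.39, in neither order.

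Nlrp3 encodes the sensor of the inflammasome that leads to release of interleukin-1 beta. Its level was 153 (147 to 159), 179.6 (172 to 187.5), 187.5 (178 to 198) and 234 (214 to 255) CPM in macrophages and 180.2, 227, 215 and 243 in monocytes. The Aire+/+ isotype tumor was the lowest and the Aire-/- anti-PD1 tumor the highest in both classes, and every ratio was short of 2-fold. The genotype ratio in macrophages was 0.30 (0.20 to 0.39) under isotype, compared with 0.38 (0.24 to 0.52) under anti-PD1, and the treatment ratio 0.23 (0.15 to 0.32) in Aire+/+ and 0.32 (0.17 to 0.47) in Aire-/-. In monocytes these 4 ratios were 0.25 (0.14 to 0.37), 0.09 (-0.03 to 0.22), 0.34 (0.22 to 0.45) and 0.18 (0.05 to 0.30), so the genotype difference under anti-PD1 was not detectable at this depth. Thinned, 24.1%, 27.3%, 27.4% and 32.9% of macrophages had an Nlrp3 UMI against 1.96%, 0.524%, 0.583% and 0.633% of T cells, and unthinned 68.4%, 73.8%, 73.3% and 76.3% against 5.87%, 1.57%, 4.37% and 2.11%. Neutrophils held 639, 718, 837 and 1357 CPM, while mature dendritic cells gave only 2, 0, 7 and 3 UMIs.

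Il6 encodes interleukin-6, a cytokine induced by IL-1. In tumor monocytes it was at 12.0 (9.64 to 14.8), 14.98 (11.8 to 18.7), 38.9 (34.0 to 44.4) and 34.9 (29.3 to 41.2) CPM, from 87, 77, 222 and 138 UMIs. Both Aire-/- tumors were above both Aire+/+ tumors, and the intervals of the genotypes did not overlap. The log2 ratio of Aire-/- to Aire+/+ was 1.69 (1.33 to 2.07) under isotype, compared with 1.22 (0.81 to 1.64) under anti-PD1, both past 2-fold. The treatment ratios, 0.32 (-0.15 to 0.78) in Aire+/+ and -0.16 (-0.48 to 0.15) in Aire-/-, were not detectable at this depth. The genotype ratios did not hang on 1 cell, for the cell with the most Il6 held 8.05%, 11.7%, 6.31% and 8.70% of the monocytes' UMIs, and without it the ratios were 1.72 and 1.27. Over the 11 alternative settings they ran from 1.10 to 1.77 under isotype and, with anti-PD1, from 0.94 after thinning to 2.21.

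Few cells carried Il6 at all. After thinning, 2.50% (1.41% to 4.10%), 2.44% (1.18% to 4.45%), 5.15% (3.29% to 7.62%) and 4.97% (2.97% to 7.74%) of monocytes had a UMI, and unthinned 9.68%, 9.78%, 18.6% and 18.8% did. The thinned T cells had it in 0 of 358, 0 of 382 and 0 of 343 cells, which allows up to 0.838%, 0.785% and 0.875%, and in 0.211% in the Aire-/- anti-PD1 tumor, and unthinned in 0.279%, 0%, 0.583% and 0.316%. The monocyte shares were above that background, and the unthinned ones were higher in both Aire-/- tumors. Macrophages held 1.71, 1.04, 3.89 and 9.48 CPM from 28, 12, 29 and 20 UMIs, under the minimum of 100 UMIs over a pair of libraries that a call needed, with ratios of 1.19 (0.39 to 1.99) under isotype, compared with 3.18 (2.08 to 4.35) under anti-PD1. In macrophages 1 cell held 32.1%, 33.3%, 13.8% and 50% of the Il6 UMIs, and over the 11 alternative settings the ratios ran from 0.67 to 1.74 under isotype and, with anti-PD1, from 1.62 with every gate minimum doubled to 4.09, so their size is uncertain.

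Monocytes held 45.5%, 63.1%, 62.0% and 39.2% of a tumor's Il6 UMIs, ungated myeloid cells 22.0%, 18.9%, 7.54% and 7.39%, and the remaining cells outside every gate 6.81%, 0%, 10.9% and 37.8%. Cells with at least 3 UMIs of Cpa3, Mcpt8 and Fcer1a, genes of mast cells and basophils, numbered 4, 1, 1 and 12 in the tumors and held 12 of 191, 0 of 122, 24 of 358 and 126 of 352 Il6 UMIs. In the last tumor 9 of those 12 cells had Il6, with 37 UMIs in 1 of them, so 35.8% of its Il6 came from 12 cells, 11 of which were among those remaining cells. In the spleens such cells, 11, 9, 7 and 5 in number, held 14 of 14, 13 of 14, 1 of 1 and 5 of 5 Il6 UMIs.

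Cxcl1 encodes a chemokine that draws neutrophils through the receptor CXCR2. Tumor macrophages held 52.3 (48.9 to 55.9), 45.2 (41.4 to 49.2), 28.7 (25.004 to 32.8) and 12.8 (8.44 to 18.6) CPM, from 858, 519, 214 and 27 UMIs. Tumor monocytes held 53.8 (48.6 to 59.4), 13.2 (10.3 to 16.8), 12.98 (10.2 to 16.3) and 12.9 (9.59 to 16.9), from 389, 68, 74 and 51. In macrophages both Aire-/- tumors were below both Aire+/+ tumors, and in monocytes the Aire+/+ isotype tumor stood alone above 3 tumors that did not differ beyond counting error. The genotype ratio in macrophages was -0.86 (-1.09 to -0.65) under isotype, compared with -1.82 (-2.43 to -1.26) under anti-PD1, and in monocytes -2.05 (-2.43 to -1.69) and -0.04 (-0.59 to 0.51). The treatment ratio was -0.21 (-0.37 to -0.05) in Aire+/+ and -1.17 (-1.80 to -0.58) in Aire-/- macrophages, and -2.02 (-2.42 to -1.65) and -0.01 (-0.55 to 0.52) in monocytes.

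These Cxcl1 values rested on few cells, and their intervals, which treat every UMI as separate, are too narrow for that. UMIs were found in 68, 50, 22 and 4 macrophages and 21, 10, 12 and 7 monocytes, and a single cell held 6.76%, 10.2%, 28.5% and 48.1% of the macrophages' UMIs and 23.1%, 22.1%, 21.6% and 35.3% of the monocytes'. Without that cell the 4 ratios, genotype first, were -1.24, -2.60, -0.26 and -1.62 in macrophages and -2.03, -0.31, -2.00 and -0.29 in monocytes. The 4 ratios past 2-fold with that cell were past it without it, as was the isotype genotype ratio in macrophages. None of the 4 was past 2-fold under all 11 alternative settings. In macrophages the genotype ratio under anti-PD1 ran from -2.91 to -0.66 and the treatment ratio in Aire-/- from -2.21 to 0.0583, and in monocytes the genotype ratio under isotype ran from -2.72 to -0.80 and the treatment ratio in Aire+/+ from -2.03 to -0.82. The share of thinned macrophages with a UMI was 4.11% (2.99% to 5.50%), 3.17% (2.02% to 4.72%), 2.56% (1.33% to 4.44%) and 1.16% (0.140% to 4.11%), with overlapping intervals, and unthinned it was 6.51%, 6.89%, 4.70% and 2.31%. In T cells the unthinned share was 0.279%, 0%, 0.292% and 0%, and the thinned one 0 of 358, 0 of 382, 1 of 343 and 0 of 948 cells, where 0 allows up to 0.838%, 0.785% and 0.316%. The ungated myeloid cells held 100.5, 37.7, 103 and 50.4 CPM, lower in both anti-PD1 tumors at log2 ratios of -1.41 in Aire+/+ and -1.02 in Aire-/-, and with no genotype ratio past 2-fold. These ratios too rested on few cells, since the top 10% of ungated myeloid cells held 100% of the UMIs in each tumor. Neutrophils gave 31, 48, 1 and 0 UMIs, the Aire+/+ tumors being the high ones.

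Cxcl2 encodes the related chemokine, which acts on the same receptor. It was at 3234 (3206 to 3261), 3184 (3152 to 3217), 2624 (2587 to 2661) and 2404 (2339 to 2472) CPM in macrophages and at 2674, 2746, 2150.2 and 1745 in monocytes. Both Aire-/- tumors were below both Aire+/+ tumors in each class, by less than 2-fold. The genotype ratio was -0.30 (-0.33 to -0.28) and -0.41 (-0.45 to -0.36) in macrophages and -0.31 (-0.35 to -0.28) and -0.65 (-0.70 to -0.61) in monocytes, under isotype and anti-PD1 in turn. Anti-PD1 over isotype was -0.02 and -0.13 in macrophages and 0.04 and -0.30 in monocytes, for Aire+/+ and Aire-/- in turn. The direction by genotype held under 11 of 11 alternative settings in macrophages, while in monocytes under isotype the ratio was 0.0057 with every gate minimum doubled.

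Cxcl2 was more unevenly spread among cells than Il1b. The median macrophage held 14.5, 12.7, 5.88 and 2.70 UMIs per 10000 and the median monocyte 0.965, 2.26, 0.670 and 0. The top 10% of macrophages held 42.6%, 44.4%, 48.8% and 52.8% of the UMIs, and the top 10% of monocytes 61.0%, 54.9%, 60.7% and 63.5%. In both Aire-/- tumors the median macrophage was thus lower and the transcript more concentrated. After thinning 62.6%, 61.4%, 55.6% and 50.3% of macrophages and 45.4%, 47.2%, 41.4% and 40.1% of monocytes had a UMI, against 7.54%, 3.40%, 3.50% and 2.11% of T cells, and unthinned 72.5%, 73.7%, 62.4% and 58.4%, 52.9%, 57.2%, 50.8% and 48.6%, and 12.0%, 6.54%, 6.71% and 4.43%. Neutrophils were the high class with 37017, 30974, 29346 and 36068 CPM, and cDC2 a low one with 355, 29.2, 321 and 94.2, where both anti-PD1 tumors were below both isotype tumors at log2 ratios of -3.60 (-4.28 to -2.99) in Aire+/+ and -1.77 (-2.23 to -1.34) in Aire-/-. These cDC2 ratios rested on a handful of cells, since the top 10% of cDC2 held 97.3%, 91.3%, 99.3% and 100% of the UMIs and the median cell held 0 in each tumor.

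Ptgs2 encodes the inducible cyclooxygenase that makes the precursor of prostaglandins. Tumor macrophages held 172 (166 to 179), 207 (199 to 216), 306 (294 to 319) and 402 (375 to 430) CPM. Tumor monocytes held 223 (213 to 235), 206 (194 to 219), 297 (283 to 311) and 289.8 (273 to 307). Both Aire-/- tumors lay above both Aire+/+ tumors in each class, with counting intervals apart. The genotype ratio in macrophages was 0.83 (0.75 to 0.91) under isotype, compared with 0.95 (0.84 to 1.07) under anti-PD1, just short of 2-fold, and in monocytes 0.41 (0.31 to 0.51) and 0.49 (0.37 to 0.61). Anti-PD1 over isotype was 0.26 (0.19 to 0.34) in Aire+/+ and 0.39 (0.28 to 0.51) in Aire-/- macrophages, against -0.11 (-0.23 to -0.00) and -0.03 (-0.14 to 0.08) in monocytes. All 11 alternative settings kept the sign of the 4 genotype ratios, with macrophages at 0.53 to 0.96 under isotype, and with anti-PD1 at 0.69 to 1.198. Monocytes ran from 0.23 to 0.53 under isotype and from 0.0862, after thinning, to 0.74 under anti-PD1.

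The share of macrophages with a Ptgs2 UMI moved the same way. Thinned it was 21.0% (18.5% to 23.6%), 27.1% (23.9% to 30.5%), 31.8% (27.6% to 36.3%) and 38.2% (30.9% to 45.8%) in macrophages and 21.5%, 21.0%, 29.3% and 23.8% in monocytes, with 2.51%, 0.785%, 0.875% and 0.527% in T cells. Unthinned it was 46.0%, 47.9%, 58.8% and 60.1%, 41.4%, 37.7%, 49.7% and 48.1%, and 4.75%, 1.31%, 4.08% and 1.05%. Neutrophils held 1569, 1778, 2464 and 1524 CPM and cDC2 60.9, 87.7, 136 and 70.2, and in both classes the Aire-/- isotype tumor was the highest of the 4. In the ungated myeloid cells, at 333, 255, 385 and 440, both Aire-/- tumors were again the high ones.

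**Figure D2:**
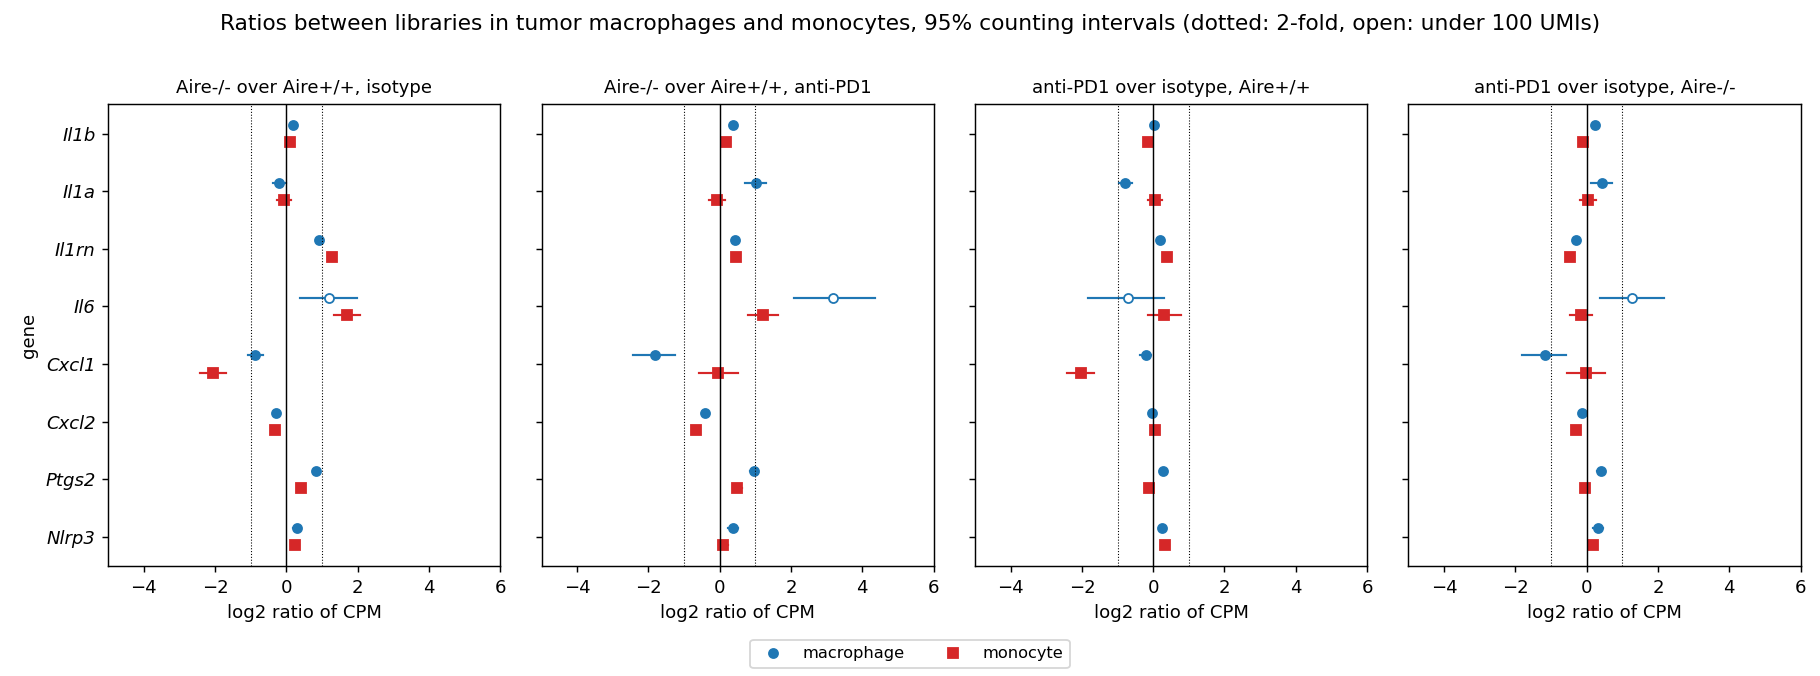
Log2 ratio of each gene between 2 tumor libraries, with 95% counting intervals, in macrophages (blue) and monocytes (red), 1 panel for each of the 4 comparisons; dotted lines mark 2-fold and open marks had under 100 UMIs over the pair. Il1rn and Ptgs2 lie above 0 and Cxcl2 below 0 in both genotype panels, and Il6 in monocytes lies past 2-fold at 1.69 and 1.22.

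Members past 2-fold are given here beside the share past it among all genes with at least 100 UMIs over the pair. Loss of Aire under isotype put 0 of 7 tested members past 2-fold in macrophages, where 1.28% of 8729 genes were past it, 0.939% higher and 0.344% lower. Under anti-PD1 it put 2 of 7 past it in macrophages, Il1a higher and Cxcl1 lower, with 3.5% of 7633 genes, 1.26% higher and 2.24% lower. In monocytes it put 3 of 8 past it under isotype, Il1rn and Il6 higher and Cxcl1 lower, with 1.23% of 6853 genes, 0.598% higher and 0.627% lower. Under anti-PD1 1 of 8 was past it in monocytes, Il6, with 1.86% of 6011 genes, 0.749% higher and 1.11% lower. Il6 was the member not tested in macrophages.

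Treatment gave fewer calls than genotype, among the members and among all genes tested alike. Anti-PD1 over isotype put 0 of 7 members past 2-fold in Aire+/+ macrophages, where 0.334% of 8991 genes were, 0.222% higher and 0.111% lower. It put 1 of 7 past it in Aire-/- macrophages, Cxcl1 lower, with 1.16% of 6746 genes, 0.356% higher and 0.8% lower. In monocytes it put 1 of 8 past it in Aire+/+, Cxcl1 lower, with 0.324% of 6792 genes, 0.0883% higher and 0.236% lower, and 0 of 8 in Aire-/-, with 0.591% of 6092 genes, 0.148% higher and 0.443% lower. The members' median log2 ratio was 0.18 and 0.38 for genotype and 0.03 and 0.23 for treatment in macrophages, beside -0.02, -0.08, -0.01 and -0.07 over all genes tested. In monocytes it was 0.18, 0.13, 0.04 and -0.06, beside -0.07, -0.04, -0.04 and -0.02. Each library entered 2 of the 4 comparisons, so their counts are not independent of each other.

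In the spleen only the monocytes were numerous enough to compare, with 7, 4, 3 and 4 macrophages gated. Splenic monocytes, 184, 123, 114 and 68 cells, held 51.8, 40.8, 81.5 and 54.8 CPM of Il1b, from 88, 41, 76 and 29 UMIs. Il1rn gave 22, 9, 15 and 1 UMIs in them, Ptgs2 5, 0, 0 and 1 and Cxcl2 1, 0, 0 and 0, and Il1a, Il6 and Cxcl1 gave none. Nlrp3 was at 32.4, 31.8, 25.7 and 37.8 CPM. The 8 members were thus each lower there than in tumor monocytes in all 4 conditions. The tumor level of Il1b was higher by log2 ratios of 6.72 (6.42 to 7.04), 6.92, 6.18 and 6.66, or 106, 121, 72.6 and 101 times. Nlrp3 was higher by 2.48, 2.84, 3.06 and 2.68, or 5.57, 7.14, 8.35 and 6.42 times. With tumor and spleen cells thinned to 2000 UMIs each, the ratios of Il1b were 6.26, 6.84, 5.98 and 6.13 and those of Nlrp3 2.34, 3.25, 3.36 and 2.96.

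For the other members the spleen counts set only bounds or wide intervals. Il1rn was higher in tumor monocytes by 5.19, 6.11, 6.18 and, from 1 UMI in the spleen, 8.80 (6.33 to 14.11). Cxcl2 was higher by 12.15 (9.67 to 17.45) against 1 UMI. Against 3 counts it was 920.1, 669 and 308-fold higher in the other 3 conditions, where no spleen UMI was seen. Set against 3 counts, Il1a was 42.2, 25.8, 22.1 and 12.9-fold higher, Cxcl1 30.5, 4.43, 4.04 and 2.27-fold and Il6 6.82, 5.02, 12.1 and 6.15-fold. Ptgs2 was higher by 6.25 in Aire+/+ isotype and 7.26 in Aire-/- anti-PD1, against 5 and 1 UMIs. In the other conditions it was 69.2 and 92.3-fold higher against 3 counts. The ratios against 3 counts are not lower limits, which lay below them, for Cxcl1 in Aire-/- anti-PD1 at a log2 of 0.83 beside 1.18. Its UMIs lay in only 21, 10, 12 and 7 tumor monocytes, so 0 in the fewer splenic ones says little. Thinning moved the 32 tumor over spleen ratios of the 8 genes by a median log2 size of 2.03. Of these, 23 lay outside their interval and 1 was reversed. Part of this follows from the floor, since a ratio against 3 counts falls when the spleen UMIs are thinned, whatever the level. The Nlrp3 ratios stayed within their intervals, and those of Il1b moved by less than this median. The largest move, -3.88, was that of Cxcl2 in Aire+/+ isotype, from a ratio over 1 spleen UMI to one of 8.27 against 3 counts. It therefore does not measure a change of the level with depth. After thinning Il1rn was at 6.40, 7.30 and 6.12, and in Aire-/- anti-PD1, with 1 spleen UMI before thinning, at 5.24 against 3 counts. Against 3 counts Il6 was at only 1.03, 0.31, 1.42 and 0.46 and Cxcl1 at 2.49, 0.07, 0.42 and -2.00. At this depth the counts of Il6 and Cxcl1 thus set weak bounds or none. For flow cytometry the methods describe enzymes for tumors and mechanical dispersion for spleens, and for these libraries they name no means of dissociation. If the same was done here, the tissue and the preparation cannot be told apart.

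An Il1b UMI was seen in 10.9%, 6.84%, 11.6% and 8.82% of thinned splenic monocytes and 25.5%, 19.5%, 25.4% and 26.5% of unthinned ones, at a median of 9420.5, 7702, 8284.5 and 7389 UMIs per cell. The splenic B cells had it in 0.0727%, 0%, 0.151% and 0.0595% thinned, where the 0 of 1383 cells allows up to 0.217%, and in 0.144%, 0%, 0.149% and 0.0590% unthinned, at medians of 4230.5, 4170, 4469 and 4288.5, so the splenic monocytes were above background. For Cxcl2 the thinned monocytes had a UMI in 0 of 184, 117, 112 and 68 cells, which allows up to 1.63%, 2.56%, 2.68% and 4.41%. The genotype ratio of Il1b in splenic monocytes under isotype was 0.65 (0.19 to 1.11). The few splenic neutrophils, 24, 7, 1 and 7 cells, held 3023, 2366, 0 and 538.5 CPM of Il1b, from 245, 73, 0 and 35 UMIs, and lay above the monocytes in the 3 libraries with more than 1 of them.

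Genes of the early response to dissociation were followed beside these values. The 16 listed genes summed to 23367, 21492, 19024 and 17352 CPM in tumor macrophages and 23771, 21538, 20457 and 18653 in tumor monocytes, with none at 0, and to 2663, 2513, 2809 and 3813 in splenic monocytes. Fos, the most abundant of them in tumor macrophages, was at 5696, 5022, 3947 and 3461 there, at 4672, 4060, 3323 and 3043 in tumor monocytes and at 423, 331, 296 and 486 in splenic monocytes. Both Aire-/- tumors were thus lower in Fos, as in Cxcl2, and the tumors were higher than the spleens, by a median log2 ratio over the 16 genes of 2.93, 2.83, 2.63 and 2.08 in monocytes. Their part in the tumor over spleen ratios was not tested. Among the 16 only Hspa1a and Hspa1b passed 2-fold between conditions, lower at -1.45 and -1.42 in Aire-/- macrophages under anti-PD1, with Hspa1b higher at 1.89 with anti-PD1 in Aire+/+ macrophages and 1.53 in Aire-/- monocytes under isotype, and at -1.55 and -1.45 with anti-PD1 in Aire-/- monocytes. In cells whose Fos, Jun, Junb, Egr1 and Ier2 lay in a shared middle range, 38 of the 64 ratios between conditions lay outside their interval, 1 was reversed and 56 kept their sign. The genotype ratio of Cxcl2 there was -0.25 in macrophages and -0.27 in monocytes under isotype, against -0.30 and -0.31 in all cells, and -0.08 and -0.35 under anti-PD1, against -0.41 and -0.65. That of Il1rn was 1.21 and 1.41 under isotype and 0.71 and 0.83 under anti-PD1, each higher than in all cells.

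Some genes of the wider pathway also passed 2-fold. Of 83 listed genes for other IL-1 family ligands and receptors, the inflammasome, NF-kB signaling, other inflammatory cytokines, receptors of the products, and prostanoid and leukotriene enzymes, 82 were in the count tables, all but Il36g. Under isotype, 2 of 58 tested genes rose past 2-fold with loss of Aire in macrophages and 1 fell, where 0.939% of all genes tested rose and 0.344% fell. These were Il18bp, which encodes a decoy receptor of interleukin-18 and was at 78.8, 93.4, 159 and 147 CPM (ratio 1.01, 0.90 to 1.13), Il12b, a cytokine subunit at 4.21, 1.57, 8.46 and 2.37 (1.01, 0.49 to 1.52), and Cxcl3, a further ligand of CXCR2 at 42.1, 17.7, 8.05 and 10.9 (-2.39). Under anti-PD1 0 of 51 rose and 1 fell, beside 1.26% and 2.24% of all genes, and it was Hpgds, the synthase of prostaglandin D2, at 56.6, 70.5, 37.6 and 22.3 (-1.66). Anti-PD1 over isotype put 0 of 57 higher and 1, Cxcl3 (-1.25), lower in Aire+/+ macrophages, beside 0.222% and 0.111% of all genes, and 0 of 49 past 2-fold in Aire-/-, beside 1.16%.

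In monocytes Cxcl3 was the sole gene of these lists past 2-fold. It was at 133, 28.8, 43.5 and 21.7 CPM, so that, as with Cxcl1, the Aire+/+ isotype tumor was the high one. It was lower at -1.61 among 53 tested with loss of Aire under isotype, at -2.20 among 53 with anti-PD1 in Aire+/+ and at -1.002 among 51 with anti-PD1 in Aire-/-, and 0 of 51 passed with loss of Aire under anti-PD1. Over all genes tested, 0.627%, 0.236% and 0.443% were lower past 2-fold in the 3 comparisons with Cxcl3, and 1.86% passed in the other. The median log2 ratio over the tested genes was 0.07, 0.01, 0.04 and -0.10 in macrophages and 0.12, 0.03, 0.01 and -0.02 in monocytes, genotype comparisons first.

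Across 46 profiles, each a gated class in a library with at least 20 cells, genes were ranked by how alike their pattern was to a member's. The measure was Pearson r over log2 levels among 9801 genes. The ungated myeloid cells and the other cells outside every gate were left out. The profiles share libraries and depth, so r is a description. Il1b was most like Zfp36 (0.957), Fos (0.956) and Smim3 (0.955). Il1rn was most like Cstb (0.961), Ptgs2 (0.960) and Il1b (0.9502), so 2 of its 3 closest genes were members. Cxcl2 was most like Ets2 (0.9498), Ier3 (0.947) and Rsad2 (0.923), and Ptgs2 was most like Ets2 (0.972), Il1rn (0.960) and Ier3 (0.954). Within the 21 profiles of gated tumor myeloid cells alone, Il1a had r of 0.939 with Ptgs2 and 0.901 with Il1b, against 0.885 and 0.694 over the 46 profiles. In the same 21, Il1rn had r of 0.885 with Ptgs2 and 0.717 with Il1b, both lower than its values above. Il6 had a negative r with each other member there, from -0.40 with Cxcl2 to -0.13 with Il1rn. Over the 46 profiles its r with each was positive, from 0.35 with Il1a to 0.66 with Il1rn.

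The members lie on 4 chromosomes of the mouse genome (GRCm38). Il1b (gene 16176) is at chr2:129364569-129371164 and Il1a (16175) at chr2:129299609-129310186, both on the minus strand and next to each other, and Il1rn (16181) is on the plus strand at chr2:24336860-24351491. Cxcl1 (14825) at chr5:90891245-90893121 and Cxcl2 (20310) at chr5:90903899-90905938 are also neighbours, and Il6 (16193) is at chr5:30013114-30019975, all on the plus strand. Ptgs2 (19225) is at chr1:150100031-150108234 and Nlrp3 (216799) at chr11:59541569-59566955, plus strand.

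Promoters from RefSeq (GRCm38.p6), from 250 bases before to 50 bases after a gene's start, were searched on both strands for 3 sets of letters, with windows for all 8 members, 11 in all. GGGNNTTTC, of the NF-kB type, was in 1432 of 32851 promoters (4.36%) and in 5 of the 11 member windows, those of Cxcl1, Cxcl2, Il1rn and Il6, 4 of 8 members. The share of promoters compares with the count of windows, since a member can have several. TGANTCA, of the AP-1 type, was in 7.81% of promoters and in 3 of the 11 windows, of Il1a, Il1rn and Il6. TGACGTNN, of the CRE type, was in 7.49% and in 3 of the 11, of Cxcl1, Il6 and Ptgs2. In Il1rn the GGGNNTTTC match lies in overlapping windows and the TGANTCA match in another window. The 3 windows printed here are those of the secreted products that IL-1 induces, since under isotype they differed in direction between genotypes in tumor monocytes, where that of Cxcl2 was 0.0057 with every gate minimum doubled. The GGGNNTTTC letters are in capitals, at -71 and, on the minus strand, -88 from the start in Cxcl1, at -97 and -78 in Cxcl2 and at -44 in Il6. A match describes letters and no more. The windows are chr5:90890995-90891294 for Cxcl1, chr5:90903649-90903948 for Cxcl2 and chr5:30012864-30013163 for Il6, all on the plus strand.
Cxcl1: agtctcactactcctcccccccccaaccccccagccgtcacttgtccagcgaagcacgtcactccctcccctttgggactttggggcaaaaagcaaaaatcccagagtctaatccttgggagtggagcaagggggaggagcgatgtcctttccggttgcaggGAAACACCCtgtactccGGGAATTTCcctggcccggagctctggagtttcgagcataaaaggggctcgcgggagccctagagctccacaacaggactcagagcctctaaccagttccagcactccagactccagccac
Cxcl2: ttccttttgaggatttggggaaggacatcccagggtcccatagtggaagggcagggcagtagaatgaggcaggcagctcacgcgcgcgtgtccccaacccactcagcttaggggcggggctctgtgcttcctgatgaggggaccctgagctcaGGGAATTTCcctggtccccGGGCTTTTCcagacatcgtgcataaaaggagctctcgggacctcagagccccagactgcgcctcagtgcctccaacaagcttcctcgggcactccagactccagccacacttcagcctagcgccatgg
Il6: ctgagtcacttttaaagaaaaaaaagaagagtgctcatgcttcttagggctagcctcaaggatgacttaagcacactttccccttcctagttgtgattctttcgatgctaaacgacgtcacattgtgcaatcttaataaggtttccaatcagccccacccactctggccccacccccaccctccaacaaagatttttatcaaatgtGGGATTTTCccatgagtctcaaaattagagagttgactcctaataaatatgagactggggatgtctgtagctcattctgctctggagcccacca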

How the data were processed

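The deposited tables give counts, UMIs per gene and cell barcode that the authors made with Cell Ranger from 10x 3′ libraries, with no normalization. The submitters' processing notes name GRCm38. Among the single-cell libraries, the methods give the software version, assembly and gene model only for the 5′ ones. The 8 CD45+ libraries were used and the 8 CD8+ libraries were left out. Cells with at least 200 genes and at most 20% mitochondrial UMIs were kept, which gives the numbers of cells the study states except for 1 cell in the Aire-/- isotype tumor. Classes were gated on raw UMIs of marker genes, first match wins, and no doublets were removed. UMIs were summed over a class in a library and divided by all UMIs of those cells. Levels have exact Poisson intervals, ratios conditional exact intervals and shares above 0 Clopper-Pearson intervals, all at 95%. The upper limit printed for a share of 0 is 3 over the number of cells. Ratios needed 20 cells on each side and calls 100 UMIs over the pair, and a side with 0 UMIs took 3 counts. Shares were taken after thinning each cell to 2000 UMIs (seed 1).

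The 8 members and the other lists were chosen with earlier results of these data known. Beside all 8 members, the text names other pathway genes past 2-fold in tumor macrophages or monocytes, largest first, at most 4 in each direction per comparison, and the 3 genes most like Il1b, Il1rn, Cxcl2 and Ptgs2. Likeness used genes with at least 500 UMIs and 5 CPM added. With 1 library per condition no test between conditions was made. The code was tested on simulated data. Alternatives changed the gates, the doublets, the depth, the weight of cells, the denominator, free RNA, the mitochondrial limit, the fold and the minimum of UMIs. Alternatives chosen after seeing the data were the pooling of classes, the shared range of immediate early genes and the removal of 1 cell. Python 3.11.15, numpy 2.4.6, scipy 1.17.1, pandas 2.3.3 and matplotlib 3.10.9 were used.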

Additional observations from a re-analysis of the deposited data

Results flagged for a closer look

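The values here are differences between 2 log2 ratios whose signs were opposite in the groups compared and whose counting intervals both left out 0. With 1 library per condition, none of these differences was tested. In tumor macrophages the genotype ratio of Il1a was -0.20 under isotype and 1.02 under anti-PD1, a difference of -1.22. The treatment ratio, -0.79 in Aire+/+ and 0.43 in Aire-/-, differs by the same -1.22, since it uses the same 4 libraries. The treatment ratio of Il1rn was positive in Aire+/+ and negative in Aire-/-, with a difference of 0.47 in macrophages (0.18 minus -0.29) and 0.84 in monocytes (0.38 minus -0.46). The treatment ratio of Cxcl2 in monocytes was 0.04 in Aire+/+ and -0.30 in Aire-/-, a difference of 0.34.

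Macrophages and monocytes of the same tumors differed in sign in this way for 4 treatment ratios. In Aire+/+ the macrophage ratio minus the monocyte ratio was 0.17 for Il1b (0.03 and -0.14), -0.0605 for Cxcl2 (-0.02 and 0.04) and 0.38 for Ptgs2 (0.26 and -0.11). In Aire-/- it was 0.32 for Il1b (0.23 and -0.09). Several of these signs did not hold in all 11 alternative settings. The Aire+/+ treatment ratio of Cxcl2 kept its sign in only 4 in macrophages and in 9 in monocytes. In 1 setting each, the sign changed for Il1b in Aire-/- macrophages (-0.03 with every gate minimum doubled) and for Ptgs2 in Aire+/+ monocytes (0.19 after thinning). With macrophages, monocytes and ungated myeloid cells pooled, which gives both classes 1 value, it changed for Il1b in Aire+/+ macrophages (-0.05) and Aire-/- monocytes (0.13) and for Ptgs2 in Aire+/+ macrophages (-0.02). The other ratios named here kept their sign in all 11. All of these ratios but that of Il1a under anti-PD1 were short of 2-fold.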

How the results depend on the processing

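Of 64 ratios between conditions, 8 genes by 2 classes by 4 comparisons, 55 to 63 kept their sign under each of 11 settings. The fewest kept it with macrophages, monocytes and ungated myeloid cells pooled (55), and 63 did with at most 5% mitochondrial UMIs, with cells over 2 times the median UMIs removed, and with mitochondrial and ribosomal protein genes left out. Among ratios past 2-fold, a sign changed for Cxcl1 alone: anti-PD1 over isotype in Aire-/- macrophages was 0.0583 in cells within the shared range of immediate early genes (-1.17 as reported), and tumor over spleen in Aire-/- anti-PD1 monocytes was -2.00 after thinning. The spleen side of the second held 0 UMIs, so that value sets the UMIs left in the tumor against 3 counts and gives no direction. The cause of the first was not tested. Thinning moved the tumor over spleen ratios by a median of 2.03, and 31 of 32 kept their sign. Part of that move follows from the floor, since ratios against 3 counts fall when the spleen UMIs are thinned. No paired analysis between conditions was made because each condition has 1 library in each tissue. The tumor and spleen libraries of a condition were compared as ratios, and no test over these pairs was made.

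The counts of members past 2-fold moved in most settings. For loss of Aire under isotype in macrophages (0 as reported) the count was 3 at 1.5-fold, 2 in the shared range of immediate early genes, and 1 with a minimum of 20 UMIs, with large cells removed, after thinning, as a mean over cells, with the T cell level subtracted, with classes pooled and without the cell with the most UMIs. Under anti-PD1 (2) it was 0 after thinning and 1 with the score gate, with mitochondrial and ribosomal genes left out, with classes pooled and without that cell. It rose at 1.5-fold, which Ptgs2 (0.95) also passed, and with a minimum of 20 UMIs, where Il6 (3.18) was added. For anti-PD1 in Aire+/+ macrophages (0) it was 1 at 1.5-fold. In Aire-/- macrophages (1) it was 2 with a minimum of 20 UMIs, and 0 with doubled gates, with large cells removed, after thinning, as a mean over cells, with classes pooled and in the shared range.

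In monocytes, loss of Aire under isotype (3) gave 1 with the score gate, after thinning and with classes pooled. Under anti-PD1 (1) it gave 2 at 1.5-fold and 0 after thinning. Anti-PD1 in Aire+/+ (1) gave 0 after thinning and with classes pooled, and in Aire-/- (0) it gave 1 with the score gate. After thinning, several ratios were still past 2-fold but under the 100 UMIs that a call needs: Il1a (1.19) and Cxcl1 (-2.91) for loss of Aire under anti-PD1 in macrophages, Cxcl1 (-2.21) for anti-PD1 in Aire-/- macrophages, and Il6 (1.10) for loss of Aire under isotype in monocytes. For the other settings the cause was not tested. At most 5% mitochondrial UMIs changed no count.

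Depth limits Il6 and Cxcl1 most, with 12 to 29 Il6 UMIs in the macrophages of a tumor and 27 Cxcl1 UMIs in those of the Aire-/- anti-PD1 tumor. Shares of cells with a UMI depend on depth: 5 of 64 stayed within their interval without thinning and 17 of 64 at 1000 UMIs.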
